A study of Mus musculus with 51 samples.

Results

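Proteasome genes were taken as the protein-coding genes whose symbol starts with Psm, a letter from a to g and a digit. This gave 50 of the 37525 genes in the 5 deposited RNA tables. They are 8 genes of the alpha ring and 7 of the constitutive beta ring of the core particle, 4 beta subunits of immune cells or thymus, 6 ATPases and 11 other subunits of the regulatory particle, 3 chaperones of regulatory particle assembly, 5 other activators or inhibitors, and 4 chaperones of core particle assembly. The last 2, Psmc3ip and Psme2b, match by name: Psmc3ip encodes a meiotic recombination factor, and Psme2b is a near copy of Psme2, so that reads of the pair could be counted on either. All 50 were listed in the tables of 18h, 20h, 22h and the stem cells, and 41 in that of 24h.

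The study removed LoNA, a nucleolar noncoding RNA, from C57BL/6 mouse material. Embryos were collected as control and knockout (KO) groups at each of 18h, 20h, 22h and 24h, and 2C-like mouse embryonic stem cells (mESC) as control and knockdown (KD) groups. How the knockout and the knockdown were made, what the hours are counted from and how many embryos went into a sample are not given in the sources used here, and the level of LoNA itself was not analysed. Chromatin of 24h embryos was profiled for H3K4me3, a histone mark of active promoters, for H3K27me3, the repressive mark of the Polycomb complex, and for acetylated nucleophosmin (AcNPM1) in control, KO, and KO with a p300 inhibitor. The treatment field of every chromatin sample reads p300 inhibitor, while the titles of 1 group alone name it, and the titles were followed.

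The proteasome degrades proteins that carry ubiquitin chains. Its core particle stacks rings of alpha and beta subunits, and 3 of the beta subunits, encoded by Psmb5, Psmb6 and Psmb7, hold the proteolytic sites. The regulatory particle caps the core. Its ATPases unfold the substrate and thread it in, and its other subunits bind ubiquitin and, through Psmd14, remove it. Interferon replaces the catalytic subunits by Psmb8, Psmb9 and Psmb10, which favours peptides for class I presentation, and cortical thymus epithelium uses Psmb11. In early embryos, removal of maternal proteins through this pathway accompanies the start of transcription from the zygotic genome.

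The promoters below belong to genes on which the results turn: Psmb11, 1 of the 2 members with H3K27me3 at the start, Psmb5, the catalytic subunit whose place Psmb11 takes in the thymus and its neighbour, and Psma7 and Psmd12, which rose between 18h and 22h in both genotypes. Each shows the bases before the gene start in RefSeq (build GRCm38.p6), written 5′ to 3′ on the strand of the gene. The Psmd12 stretch ends where the gene model of the authors begins, 44 bases before the RefSeq start. Psmd1, which also rose in both genotypes, and Psmb9, the other member with H3K27me3, are not printed. Of their 250 bases before the RefSeq start, 232 and 250 lie inside that model of the gene. Capitals mark matches on either strand to CCAAT, the core of the NF-Y box, to TGACNNNGC, the core of the element bound by Nfe2l1, which is known to drive proteasome genes, or to the core of the interferon-stimulated element (TTTC, any 2 bases, TTTC).

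Psmb5, chr14:54617996-54618245, minus strand: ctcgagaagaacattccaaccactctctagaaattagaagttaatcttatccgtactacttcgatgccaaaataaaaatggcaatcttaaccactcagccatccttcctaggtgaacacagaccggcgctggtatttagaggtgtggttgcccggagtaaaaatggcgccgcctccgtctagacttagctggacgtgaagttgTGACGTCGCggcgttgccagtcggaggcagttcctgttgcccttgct
Psmb11, chr14:54625060-54625309, plus strand: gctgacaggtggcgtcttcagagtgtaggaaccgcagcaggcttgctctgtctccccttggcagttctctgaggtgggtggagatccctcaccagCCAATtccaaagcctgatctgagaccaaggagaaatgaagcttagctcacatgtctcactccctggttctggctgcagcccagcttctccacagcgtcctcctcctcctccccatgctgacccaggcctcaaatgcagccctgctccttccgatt
Psma7, chr2:180042465-180042714, minus strand: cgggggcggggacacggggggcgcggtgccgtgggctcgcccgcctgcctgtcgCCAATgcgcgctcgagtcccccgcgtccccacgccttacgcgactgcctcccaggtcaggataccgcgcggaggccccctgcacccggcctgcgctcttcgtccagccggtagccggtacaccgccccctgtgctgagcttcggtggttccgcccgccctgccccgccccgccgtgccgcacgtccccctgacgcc
Psmd12, chr11:107479278-107479483, plus strand: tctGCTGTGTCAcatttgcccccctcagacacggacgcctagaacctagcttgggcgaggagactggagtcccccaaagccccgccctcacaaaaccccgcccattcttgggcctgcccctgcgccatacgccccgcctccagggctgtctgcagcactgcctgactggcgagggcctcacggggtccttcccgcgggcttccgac

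RefSeq promoters were matched for 42 of the 50 members, with 45 start sites. CCAAT stood in 15 of these 45 windows, against 34.9% of the 18571 windows of all protein-coding genes matched in the same way. TGACNNNGC stood in 5 (Psmb5, Psmb6, Psmc6, Psmd9 and Psmd12), against 11.01%, and the interferon element in 3 (Psmb3, Psmd4 and Psmd9), against 2.82%. The median number of CpG dinucleotides was 14 in the members and 11 in all windows. In the windows of 250 bases it was 4 in Psmb11, 15 in Psmb5, 18 in Psmd12 and 35 in Psma7. Psmb5 and Psmd12 hold a TGACNNNGC match, and Psmb11 and Psma7 a CCAAT. A match is a description of letters, not of binding.

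Total counts ran from 12077497 to 18286944 in the embryo libraries of 18h, 20h and 22h (3 per group), from 13066794 to 16922914 at 24h (2 per group, each the sum of 2 near-identical columns) and from 16906302 to 17674190 in mESC (2 columns per group). Nothing in the labels says that the libraries came from separate cultures or litters, so p-values measure the spread between these libraries. The 2 columns of a mESC group correlated at 0.99 (Pearson, log2 CPM), as high a value as led to summing at 24h. Summing would leave 1 library per group and no test, so the mESC p-values measure the spread of 2 near-identical columns and say little of separate cultures. CPM, the count scaled to the size of the library, is comparable within a gene but not between genes, because no transcript lengths were at hand, so the members are not ordered by level.

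Under LoNA knockdown most proteasome genes rose in the stem cells. Of the 49 members tested, 39 were higher and 4 lower at an edgeR adjusted p under 0.05. Across all 16406 genes tested, 38.9% were higher and 35.3% lower, 74.2% in all. At an unadjusted p under 0.05 stood 43 of 49 members and 75.8% of all genes, and 42 of 49 members had a positive change, as did 50.5% of all genes. DESeq2 called 35 members higher and 4 lower, with 61.9% of all genes called. The median log2 change was 0.31 over the members and 0.0080 over all genes. Summed over the members, the level was 6184 and 6389 CPM in control and 7473 and 7672 CPM in KD. All but Psmb11, with 1 count in 1 control column and none in the other 3 columns, could be tested.

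The immune subunits spanned the widest range. Psmb8, which takes the place of Psmb5 in the immunoproteasome, had 8 and 4 counts in control and 152 and 174 in KD, or 0.453 and 0.227 CPM in control and 8.94 and 10.5 CPM in KD. This is a 27.4-fold rise (log2 4.77, SE 0.29, edgeR adjusted p 2.4e-12) and the largest change among the members. Psmb10, which takes the place of Psmb7, measured 22.7 and 23.7 CPM in control and 37.1 and 39.2 CPM in KD (log2 0.69, adjusted p 7.29e-08). Psmb9, which takes the place of Psmb6, measured 3.51 and 3.35 CPM in control and 4.296 and 4.38 CPM in KD. Its columns did not overlap, as was so for 45.6% of all genes in the higher direction. Its log2 change of 0.31 (SE 0.20) did not pass (edgeR adjusted p 0.173). Psmb8 and Psmb9 are neighbours on chromosome 17, 9957 bases apart in the authors' mm10 gene models and on opposite strands.

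Psme1 and Psme2 form the activator that interferon induces and lie 5912 bases apart on chromosome 14. Psme1 measured 43.7 and 49.4 CPM in control and 86.2 and 89.3 CPM in KD, a 1.85-fold rise, and Psme2 27.7 and 27.5 CPM in control and 56.8 and 58.9 CPM in KD, a 2.06-fold rise (edgeR adjusted p 2.3e-11 and 9.66e-12). The near copy Psme2b rose 2.49-fold, from 7.18 and 8.19 to 19.1 and 20.1 CPM. Psme3, the nuclear activator, measured 228 and 232 CPM in control and 303 and 316 CPM in KD, and the inhibitor Psmf1 30.9 and 33.3 CPM in control and 49.02 and 52.6 CPM in KD, with log2 changes of 0.40 and 0.63. Psme4, the activator of nuclei and of sperm cells, went the other way, with 353 and 359.5 CPM in control and 343 and 323 CPM in KD (log2 -0.13, SE 0.040, edgeR adjusted p 0.00687). The call was lost without a filter on low counts (adjusted p 0.117), without control column 2 (log2 -0.11, adjusted p 0.0747) and without KD column 2 (log2 -0.066, adjusted p 0.177).

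In the core particle, 7 of 8 alpha genes and 6 of 7 constitutive beta genes were higher, where 38.9% of all genes were. Psma6 rose most, with 148 and 146 CPM in control and 264 and 272 CPM in KD (1.79-fold, edgeR adjusted p 4.85e-14). Psma3, a subunit whose tail helps to close the gate of the core, measured 133 and 145 CPM in control and 164 and 168 CPM in KD (log2 0.23). Psma8, the alpha subunit of spermatocytes, fell 1.95-fold, from 15.7 and 17.2 to 7.47 and 9.73 CPM (edgeR adjusted p 8.83e-07), and was the alpha gene that went against the others. The 3 catalytic subunits rose by unequal amounts. Psmb5, with chymotrypsin-like activity, measured 31.5 and 35.1 CPM in control and 53.5 and 54.3 CPM in KD (1.59-fold). Psmb6, with caspase-like activity, measured 160.1 and 172 CPM in control and 207 and 215 CPM in KD (1.25-fold), and Psmb7, with trypsin-like activity, 120.3 and 119.6 CPM in control and 135 and 143 CPM in KD (1.13-fold). Psmb3, a structural beta subunit, was at 274 and 297 CPM in control and 275 and 295 CPM in KD and did not pass (log2 -0.030, SE 0.044).

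In the regulatory particle, 5 of 6 ATPases and 7 of 11 other subunits were higher, with 2 lower. Of all genes, 38.9% were higher and 35.3% lower. Psmc4, an ATPase of the base, measured 124 and 127 CPM in control and 171 and 172 CPM in KD (log2 0.42, edgeR adjusted p 1.41e-08), and Psmc5, the ATPase with the largest change, 125 and 129 CPM in control and 189.7 and 196 CPM in KD (log2 0.57). Psmc6 did not pass (log2 0.020, SE 0.042). The deubiquitinase Psmd14 measured 106 and 103 CPM in control and 161 and 159.8 CPM in KD, a 1.502-fold rise, and Psmd13, another lid subunit, 122 and 125 CPM in control and 175 and 181 CPM in KD. Psmd1, the large scaffold of the base, fell from 287 and 290.5 to 233 and 234 CPM (log2 -0.34, edgeR adjusted p 6.65e-08). Psmd11, a lid subunit, fell from 217 and 217 to 175 and 177 CPM (log2 -0.33, edgeR adjusted p 1.88e-07). Psmd3 and Psmd8 did not pass, with log2 changes of 0.070 and -0.017.

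All 4 chaperones of core assembly were higher, as were 38.9% of all genes. Psmg1 measured 47.6 and 55.2 CPM in control and 57.5 and 65.2 CPM in KD (log2 0.23, edgeR adjusted p 0.00883), a call lost under DESeq2 (adjusted p 0.0611), without a filter on low counts, without control column 1 and without KD column 2. Psmg3 rose 1.95-fold, from 2.94 and 2.84 to 5.83 and 5.71 CPM, and Psmg4 1.64-fold, from 12.6 and 12.4 to 19.4 and 22.5 CPM. Of the chaperones of regulatory particle assembly, Psmd9 (1.71-fold) and Psmd10 (1.64-fold) were higher, and Psmd5, at 92.9 and 94.04 CPM in control and 93.8 and 91.4 CPM in KD, did not pass (log2 -0.043, SE 0.048). Psmc3ip measured 19.6 and 21.4 CPM in control and 26.5 and 22.4 CPM in KD (log2 0.23, edgeR adjusted p 0.0387).

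**Figure D1:**
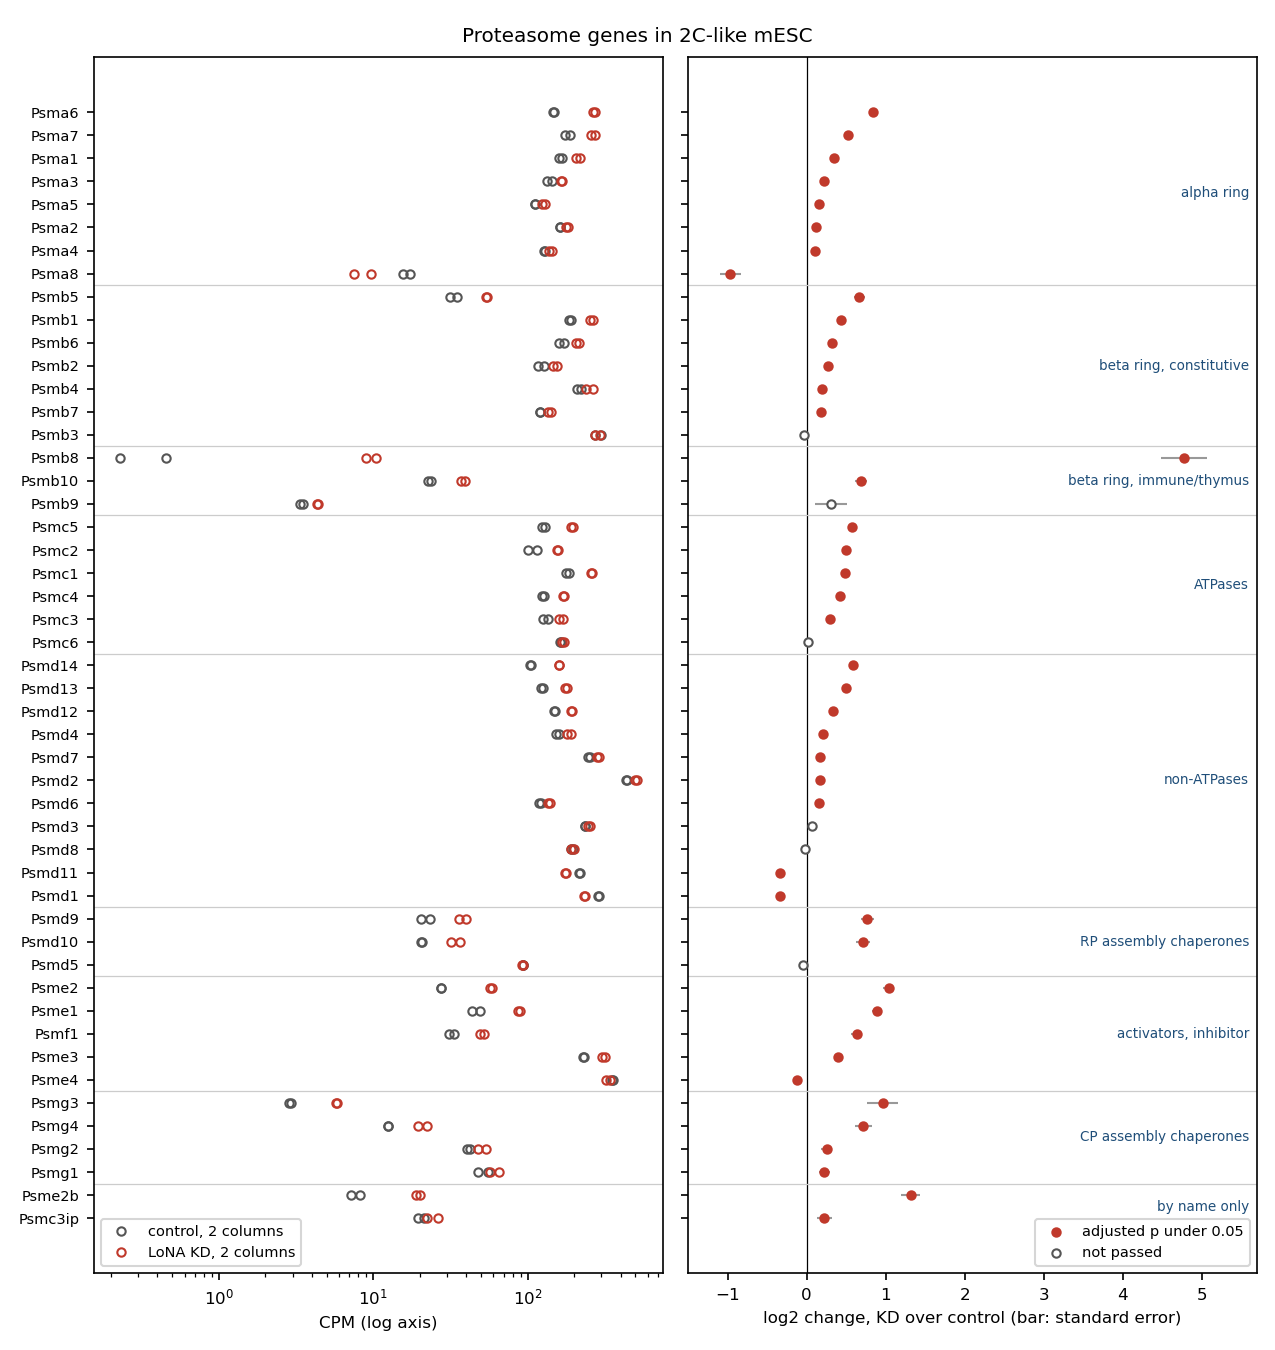
The 49 tested proteasome genes in 2C-like mESC, grouped by role (RP, regulatory particle; CP, core particle): CPM of each of the 2 control and 2 KD columns on a log axis (left) and the log2 change of KD over control with its standard error (right), filled where the edgeR adjusted p is under 0.05. Most points lie to the right of 0, Psmb8 is farthest at 4.77, and Psma8, Psmd1, Psmd11 and Psme4 are filled on the left.

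The other genes of the ubiquitin pathway moved in both directions. Of 31, 21 were higher and 7 lower, where 38.9% and 35.3% of all genes were. Rises named here are those of the shuttle factor Ubqln2 (2.75-fold), the zinc finger gene Zfand2a (1.79-fold), the small lid subunit Sem1 (1.72-fold) and the Vcp cofactor Nploc4 (1.697-fold). The falls were led by the activating enzyme Uba6 (log2 -0.69), the shuttle factor Ubqln4 (-0.56), the deglycosylase Ngly1 (-0.36), the segregase Vcp (-0.25) and Nfe2l2 (-0.21). Nfe2l1, the regulator of proteasome genes, measured 214 and 230.1 CPM in control and 268 and 265 CPM in KD (log2 0.23, edgeR adjusted p 3.18e-05). Of 12 genes of the interferon response and class I presentation, 6 were higher and 2 lower, against the same 38.9% and 35.3%. Tap2, the peptide transporter subunit on chromosome 17, rose 10.1-fold, from 1.58 and 1.76 to 18.01 and 16.7 CPM, and B2m, the light chain of class I molecules, 3.39-fold. Of the regulators named here, Irf1 and Irf9 did not pass (log2 0.13 and 0.012), and Nlrc5, the class I transactivator, was lower (-2.06).

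Markers of other cell types were read beside these values. The 6 stem cell markers summed to 3513 to 3544 CPM in control and 1821 to 1851 CPM in KD. The 6 fibroblast markers summed to 466 to 487 CPM and 199 to 200 CPM, with none of them at 0, and the 6 blood cell markers to 14.4 to 15.9 and 8.36 to 9.61 CPM, with Hbb-bs at 0. The 6 two-cell markers, which would mark a 2C-like state, summed to 4.98 to 5.46 CPM in control and 2.53 to 2.76 CPM in KD, while control embryos at 18h held 471 to 887 CPM, scaled in a table of their own. Mitochondrial genes took 1.48% and 1.53% of counts in the control columns and 2.26% and 2.24% in the KD columns. The part of these shifts in the changes of the proteasome genes was not tested. In bulk RNA, fewer cells of a type and less RNA per cell cannot be told apart.

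Between 18h and 22h a few proteasome genes rose in embryos, and most others had a positive change that did not pass. In control embryos, 3 of 43 tested members passed at an edgeR adjusted p under 0.05, all higher: Psma7, Psmd1 and Psmd12. Of all 16882 genes, 0.936% were higher and 0.776% lower. In KO embryos, 5 of 46 members were higher and none lower, namely these 3 with Psmd14 and Psmd5, against 1.94% and 1.49% of 16519 genes. A positive change, passed or not, was seen in 34 of 43 members in control and in 34 of 46 in KO, where 47.1% and 50.7% of all genes had one. The median log2 change was 0.64 in control and 0.42 in KO, and over all genes it was -0.063 and 0.019.

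Psmd12, a scaffold of the lid, measured 67.4, 50.6 and 41.9 CPM at 18h, 76.8, 86.4 and 135 CPM at 20h and 300.1, 182 and 248 CPM at 22h in control. In KO it measured 52.5, 35.5 and 46.4 CPM at 18h, 57.4, 98.1 and 74.5 CPM at 20h and 189, 198 and 164 CPM at 22h. Every 22h library lay above every 18h library in either genotype, a 4.31-fold rise in control and 3.898-fold in KO (edgeR adjusted p 0.0152 and 0.00819). Such a separation was seen in 18 of 43 tested members in control and 15 of 46 in KO. Of all genes, 13% and 16.2% were higher at 22h without overlap. Psma7, an alpha subunit, measured 193, 125 and 126 CPM at 18h, 244, 339 and 589 CPM at 20h and 577, 416 and 879.6 CPM at 22h in control. In KO, Psma7 measured 122, 183 and 127 CPM at 18h, 232, 581 and 560.3 CPM at 20h and 522, 830.0 and 664 CPM at 22h. Its folds were 3.99 and 4.45 (edgeR adjusted p 0.0262 and 0.0119), with the 20h means in between. Psmd1 took another course. It measured 129.7, 94.9 and 74.9 CPM at 18h, 60.4, 25.1 and 56.5 CPM at 20h and 292, 314 and 308 CPM at 22h in control. In KO, Psmd1 measured 57.02, 35.1 and 108 CPM at 18h, 52.4, 61.6 and 59.9 CPM at 20h and 263, 358 and 306 CPM at 22h, so that in control every 20h library lay below every 18h library, in KO the 20h libraries lay within the range of 18h, and the rise came by 22h (2.88-fold and 4.42-fold over 18h, edgeR adjusted p 0.0409 and 0.012). Each of these values is scaled within its own deposited table, while the folds come from 1 joint fit of the counts.

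Psmd14 measured 20.8, 17.4 and 13.6 CPM at 18h, 20.02, 9.31 and 23.6 CPM at 20h and 41.4, 30.5 and 33.04 CPM at 22h in control embryos. Its KO libraries held 5.25, 9.37 and 7.86 CPM at 18h, 40.6, 15.6 and 25.8 CPM at 20h and 24.4, 37.7 and 25.6 CPM at 22h. The rise was 3.72-fold in KO (edgeR adjusted p 0.0386), and 1.92-fold without passing in control (adjusted p 0.28). Psmd5, a chaperone of the base, rose 2.27-fold in KO (edgeR adjusted p 0.0384), from 46.4, 46.7 and 43.01 to 104, 93.0 and 128 CPM. In control the fold was 1.36 (adjusted p 0.73). Over 11 alternative settings, the KO call held in 2 for Psmd5 and in 4 for Psmd14, and leaving out any single KO library of 18h or 22h lost either. Psmd1 was called in 4 of 11 in control, lost without any single control library of those times, and in 8 in KO. Psma7 was called in 5 and 8, and Psmd12 in 8 in control and all 11 in KO. The difference of the change between the genotypes passed for none of 48 members in the interaction test (0 of 19515 genes, 0%), with 3 members at an unadjusted p under 0.05 (Psma6, Psmb11 and Psme1), where 5.46% of all genes were. DESeq2 called 0.215% of all genes there.

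The roles differed in how many members leaned upward. All 7 tested alpha genes had a positive change in either genotype, with medians of 0.86 in control and 0.92 in KO. Of the ATPases, 6 of 6 were positive in control and 5 of 6 in KO, with medians of 1.11 and 0.75, and 10 of 11 and 9 of 11 other regulatory subunits were positive. Psmc4 measured 16.98, 29.8 and 17.8 CPM at 18h, 1.26, 20.3 and 34.3 CPM at 20h and 57.96, 57.4 and 37.7 CPM at 22h in control. In KO, Psmc4 measured 18.6, 13.9 and 18.5 CPM at 18h, 20.7, 18.1 and 22.1 CPM at 20h and 45.6, 46.2 and 35.2 CPM at 22h, and its log2 changes of 1.16 in control and 1.24 in KO did not pass. In the constitutive beta ring the values were mixed. There, 5 of 7 genes were positive in control and 4 of 7 in KO, with medians of 0.47 and 0.20. Psmb5, at low levels, had log2 changes of 2.41 in control and 1.92 in KO that did not pass (edgeR adjusted p 0.358 and 0.335). Psmb6 measured 173, 199 and 178 CPM at 18h, 123, 334 and 176 CPM at 20h and 139.9, 118 and 134 CPM at 22h in control. In KO, Psmb6 measured 179, 161 and 176 CPM at 18h, 130.0, 85.2 and 202 CPM at 20h and 127, 161 and 154 CPM at 22h, and in the joint scaling all its 22h libraries lay below those of 18h in control (log2 -0.57) and in KO (-0.30), without passing. Of the tested members, 2 in control and 3 in KO were lower without overlap, as were 12.3% and 12.4% of all genes. Psmb7 measured 14.8, 7.85 and 5.76 CPM at 18h, 35.4, 15.6 and 19.3 CPM at 20h and 30.4, 21.8 and 28.4 CPM at 22h in control. In KO, Psmb7 measured 12.9, 17.6 and 3.25 CPM at 18h, 22.1, 24.9 and 27.1 CPM at 20h and 20.002, 17.01 and 13.8 CPM at 22h, with log2 changes of 1.42 and 0.51 that did not pass. Psma3 measured 56.02, 21.9 and 28.9 CPM at 18h, 33.7, 29.7 and 51.6 CPM at 20h and 54.8, 28.9 and 63.3 CPM at 22h in control. In KO, Psma3 measured 37.6, 24.1 and 22.5 CPM at 18h, 54.2, 61.2 and 62.7 CPM at 20h and 37.1, 67.5 and 68.1 CPM at 22h (log2 change 0.38 in control and 0.96 in KO, not passed).

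**Figure D2:**
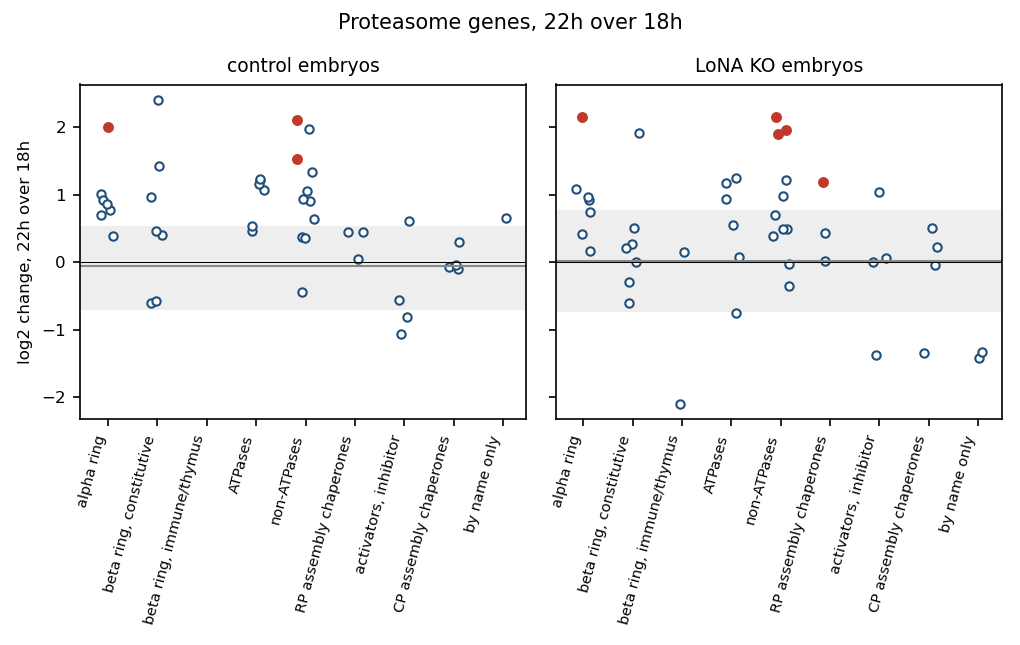
Log2 change of 22h over 18h for each tested proteasome gene, by role (RP, regulatory particle; CP, core particle), in control (left) and LoNA KO embryos (right). Filled points have an edgeR adjusted p under 0.05 (3 in control, 5 in KO), the grey band spans the quartiles of all genes and the grey line is their median; the alpha ring points lie above 0 in both panels.

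Of the 4 tested activators and inhibitors, 3 had a negative change in control and 1 in KO. Psme4 measured 483, 293 and 471 CPM at 18h, 219.8, 331 and 217 CPM at 20h and 159, 149 and 325 CPM at 22h in control. In KO, Psme4 measured 314, 684 and 371 CPM at 18h, 393, 262 and 162 CPM at 20h and 173, 189.6 and 189 CPM at 22h. Its log2 changes were -1.06 in control (edgeR adjusted p 0.156) and -1.38 in KO (adjusted p 0.0571), and neither passed. In KO it passed as a fall under 4 other settings, with DESeq2 among them (log2 -1.47, adjusted p 0.00122, and log2 -1.11 with adjusted p 0.0309 in control). Psme3 measured 189.8, 208 and 243 CPM at 18h, 215, 149.5 and 124 CPM at 20h and 113, 153 and 124 CPM at 22h in control. In KO, Psme3 measured 189, 184 and 136 CPM at 18h, 218, 133 and 197 CPM at 20h and 223, 127 and 189 CPM at 22h (log2 change -0.81 in control and 0.0022 in KO, not passed). Psmf1 measured 117, 148 and 92.7 CPM at 18h, 65.9, 140.2 and 166 CPM at 20h and 239.8, 144 and 198 CPM at 22h in control. In KO, Psmf1 measured 118, 55.2 and 93.5 CPM at 18h, 77.5, 79.3 and 169 CPM at 20h and 210.2, 162 and 205 CPM at 22h (log2 change 0.62 in control and 1.04 in KO, not passed). Psmg1, a chaperone of the core, measured 67.8, 67.7 and 75.2 CPM at 18h, 79.04, 85.5 and 98.1 CPM at 20h and 81.5, 57.8 and 69.4 CPM at 22h in control. In KO, Psmg1 measured 66.6, 41.2 and 122 CPM at 18h, 99.3, 129 and 143 CPM at 20h and 43.6, 91.7 and 98.1 CPM at 22h (log2 change -0.10 in control and -0.041, with SE 0.26 and 0.41).

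**Figure D3:**
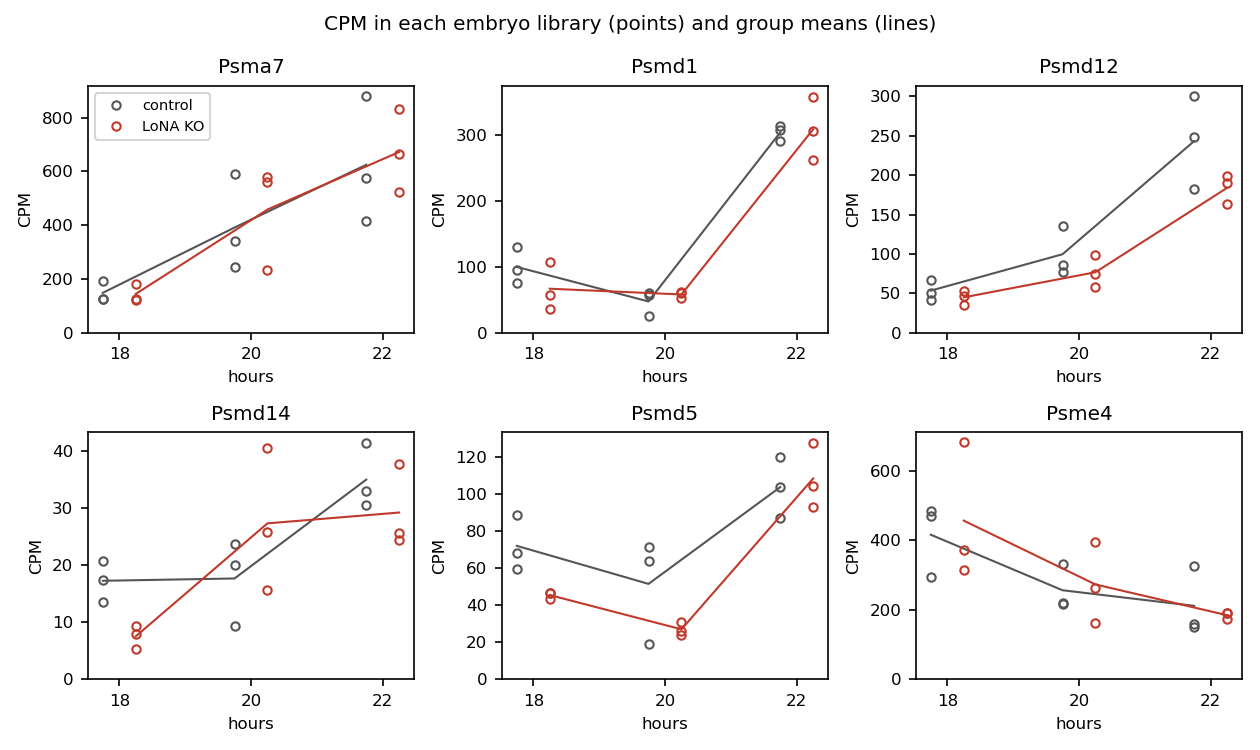
CPM of 6 proteasome genes in each library of 18h, 20h and 22h embryos, control in grey and LoNA KO in red, with lines through the group means and a linear axis from 0; control points are drawn left of the hour and KO points right of it. Psma7 and Psmd12 climb from 18h to 22h, Psmd1 is high at 22h alone, and Psme4 lies lower at 22h than at 18h on average without passing the test.

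Of the 31 related genes, 2 passed in control, both higher, where 0.936% of all genes were higher and 0.776% lower. They were the ubiquitin receptor Adrm1, which docks on the regulatory particle (log2 1.54, edgeR adjusted p 0.0452), and the segregase Vcp (1.75, 0.0302). In either genotype 13 related genes had a positive change and 18 a negative one. Their median log2 change was -0.10 in control and -0.28 in KO. None of the related genes passed in KO, where the lowest adjusted p by edgeR was 0.0931 and 9 had an unadjusted p under 0.05 (18.4% of all genes did). Each time stands in a separate table, so time and table cannot be told apart. The calls depended on single libraries: the count of 3 in control fell to 0 without control library 3 of 18h or control library 1 of 22h, and the count of 5 in KO fell to 1 without KO library 2 or KO library 3 of 22h, where Psmd12 was the member left. With DESeq2, 10 members were higher and 2 lower in control, where it called 6.6% of all genes, and 7 were higher and 1 lower in KO, where it called 9.69%.

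Marker sums and the mitochondrial share moved with time as well. The 6 cumulus and granulosa cell markers summed to 26.0 to 51.6 CPM at 18h and 48.5 to 101 CPM at 22h in control, with Amh at 0 at both times and Inha and Foxl2 at 0 at 22h. In KO they summed to 19.3 to 36.0 CPM at 18h, with Inha and Amh at 0, and to 58.3 to 78.1 CPM at 22h, with Amh at 0, so that the KO groups did not overlap. The mitochondrial share of counts ranged from 2.86% to 5.71% in control libraries of 18h and from 1.62% to 2.99% in those of 22h. In KO that share was 3.99% to 9.84% and then 1.90% to 2.49%, without overlap. The 6 two-cell markers summed to 471 to 887 CPM at 18h and 232 to 269 CPM at 22h in control, and to 509 to 1183 and 263 to 304 CPM in KO. The 6 oocyte markers overlapped, at 5001 to 8570 and 5786 to 7869 CPM in control. The 6 blood cell markers summed to 9.40 to 20.9 CPM at 18h and 3.04 to 4.33 CPM at 22h in KO. The 6 sperm and testis markers summed to 7.68 to 18.7 and 1.22 to 6.70 CPM in KO. Those of trophectoderm and later embryo summed to 64.5 to 89.7 and 91.3 to 140 CPM in KO. In control, the times overlapped for each of these sets. Some blood cell and sperm markers were at 0. The part of these sums and shares in the rise of proteasome genes was not tested.

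Within a time, no proteasome gene passed between KO and control embryos. At 18h, 20h and 22h, 0 of 41, 0 of 43 and 0 of 44 tested members had an edgeR adjusted p under 0.05, against 0.00649%, 0.0138% (0.00689% in each direction) and 0.00656% of all genes. Members with an unadjusted p under 0.05 numbered 1, 2 and 0, where 5.14%, 3.66% and 3.15% of all genes had one, and DESeq2 called 0.415%, 0.151% and 0.0328% of all genes and none of the members. The median log2 change over the members was -0.028, 0.065 and -0.18. Negative changes numbered 22 of 41 at 18h (51.2% of all genes), and positive ones 24 of 43 at 20h (48.4%) and 16 of 44 at 22h (49.8%). Not tested for low counts were Psma8, Psmb8, Psmb9, Psmb10 and Psme1 at each of the 3 times, Psmb11 and Psmd13 at 18h and 20h, Psmg3 at 18h, and Psme2b at 18h and 22h.

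At 18h the lowest p belonged to Psmd14, at 20.8, 17.4 and 13.6 CPM in control and 5.25, 9.37 and 7.86 CPM in KO (log2 -1.19, SE 0.48, unadjusted p 0.0311, edgeR adjusted p 0.944). All 3 KO libraries lay below the controls. Psmd5, at 59.4, 88.5 and 67.97 CPM in control and 46.4, 46.7 and 43.01 CPM in KO, was lower without overlap too (log2 -0.65, adjusted p 0.969 by edgeR), and Psma6, at 67.1, 57.8 and 55.998 CPM in control and 77.8, 97.98 and 88.8 CPM in KO, was higher without overlap (log2 0.56). Psme3 was the remaining member whose KO libraries all lay lower, and Psmg4 the other whose libraries all lay higher. Those 3 lower and 2 higher members stand against 7.25% and 5.56% of all genes without overlap. None of these genes was called.

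At 20h the lowest p were those of Psmc2, an ATPase, at 104, 96.2 and 128 CPM in control and 53.7, 53.8 and 85.96 CPM in KO (log2 -0.80, edgeR adjusted p 0.998), of Psmd8, a lid subunit, at 144, 131 and 117 CPM in control and 87.2, 86.5 and 86.3 CPM in KO (log2 -0.63), and of Psma5, an alpha subunit, at 10.2, 17.8 and 39.02 CPM in control and 33.03, 32.4 and 102 CPM in KO (log2 1.27). Psmc2 and Psmd8 did not overlap between the groups and Psma5 did. In all, 3 members were higher without overlap (Psma3, Psmb5 and Psmg1) and 3 lower (Psmc2, Psmd7 and Psmd8), where 5.12% and 4.8% of all genes were. Among the roles, 6 of 7 alpha and 6 of 7 constitutive beta genes had a positive change, and 5 of 6 ATPases a negative one. Without a call these are descriptions. KO library 3 had the highest summed level of the core particle, 5349 CPM, against 2176 and 3318 CPM in the other KO libraries and 2317 to 3627 CPM in control.

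At 22h all 6 ATPases had a negative change, with log2 values from -0.62 (Psmc3) to -0.25 (Psmc2) and a median of -0.31, where 50.2% of all genes were negative. In 3 of them, Psmc1, Psmc3 and Psmc5, every KO library lay below every control. Psmc1 measured 213, 177 and 167 CPM in control and 165, 140.5 and 89.1 CPM in KO, Psmc3 22.9, 33.9 and 32.4 CPM in control and 21.6, 13.5 and 22.8 CPM in KO, and Psmc5 254, 239 and 219.6 CPM in control and 197, 214 and 142 CPM in KO. With Psmb7 and Psmd2, 5 members were lower without overlap and none higher, where 4.56% and 4.66% of all genes were. The lowest unadjusted p were 0.0544 for Psmb7 (log2 -0.66), 0.081 for Psmc3 (-0.62) and 0.0926 for Psmc1 (-0.49), each with an edgeR adjusted p of 0.99996, and none was called. The median over the members moved from -0.18 to -0.061 without control library 3, which had the highest summed level, 6947 CPM.

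**Figure D4:**
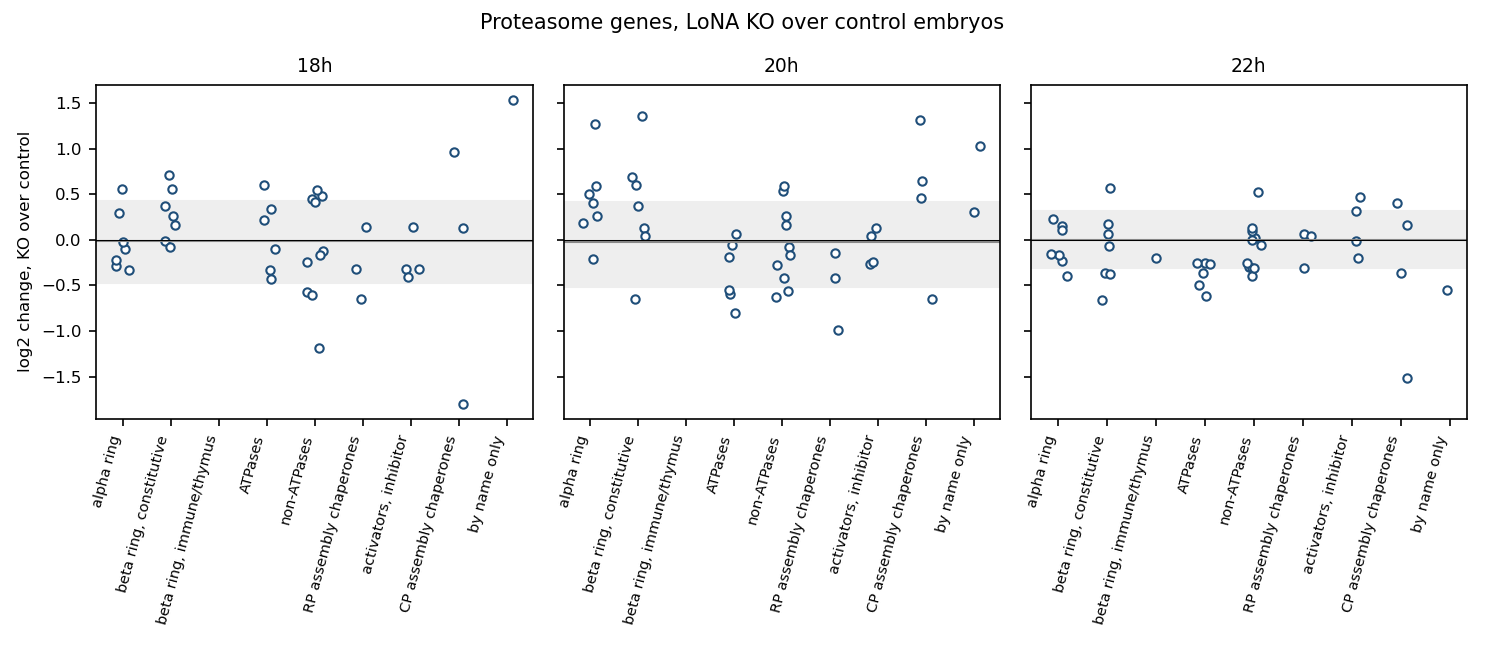
Log2 change of LoNA KO over control for each tested proteasome gene at 18h, 20h and 22h, by role (RP, regulatory particle; CP, core particle), with the quartiles of all genes as a grey band and their median as a grey line. All points are open, since no member passed, and at 22h the 6 ATPases lie between -0.62 and -0.25.

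Several members were scarce in embryos at every time. Psmb5 measured 1.51, 0.0599 and 0.507 CPM at 18h, 3.01, 1.66 and 1.31 CPM at 20h and 3.65, 4.41 and 3.57 CPM at 22h in control. In KO, Psmb5 measured 0.305, 1.905 and 0.813 CPM at 18h, 3.85, 6.58 and 5.34 CPM at 20h and 7.61, 2.004 and 2.49 CPM at 22h, against 31.5 to 54.3 CPM in the mESC columns. Psmd13 stayed at or under 2.48 CPM in all 18 libraries, with 0 in several, against 122 to 181 CPM in mESC. Psme1, Psme2 and Psmg3 were low too, with Psme1 at most 3.0002 CPM. Embryos and stem cells stand in tables scaled apart and were not tested against each other.

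The immune subunits were at the edge of detection. Psmb8 had 8, 22 and 10 counts in the control and 3, 24 and 1 in the KO libraries at 18h, 0, 0 and 0 and 1, 0 and 0 at 20h, and 0, 1 and 0 and 7, 18 and 0 at 22h. Psmb9 had 8, 5 and 0 counts in control and 27, 0 and 0 in KO at 18h, 0, 4 and 0 and 0, 0 and 0 at 20h, and 8, 2 and 0 and 0, 0 and 1 at 22h. For Psmb10 the counts were 1, 10 and 3 and 95, 6 and 4, then 2, 0 and 9 and 117, 0 and 0, then 0, 22 and 0 and 0, 23 and 5. KO library 1 of 18h and of 20h held most of the Psmb10 counts of those times. A count of 0 allows up to 3 counts per library, by counting error alone.

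Across the 18 libraries of 18h, 20h and 22h, the 5 genes whose log2 CPM followed that of Psmb5 most closely were Ccdc172, Gm7162, Styk1, Mtfr2 and Zar1l, with Pearson's r from 0.80 to 0.82. The libraries share tables, times and depths, so these values are descriptions. Among 48 members, the median r over 1128 pairs was 0.086, with a range from -0.84 to 0.90.

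At 24h no proteasome gene passed, and the libraries of a group differed widely. Separate libraries correlated at 0.52 to 0.59 (Pearson, log2 CPM of the columns), and mitochondrially encoded transcripts took 12.9% to 19.3% of counts. Of the 41 members listed, 34 were tested and 0 passed (edgeR, 0% of 7425 genes), with 4 at an unadjusted p under 0.05, where 5.16% of all genes were. A positive change was seen in 16 of 34, and in 50.5% of all genes. DESeq2 called 4 members higher and 1 lower, against 5.54% of all genes. Psmb5, Psmb8, Psmb9, Psmb11, Psma8, Psmd13, Psme1, Psmg2 and Psmg3 were not in this table.

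Psma1 measured 0 and 0.928 CPM in control and 29.4 and 223 CPM in KO, Psma4 0.127 and 2.72 CPM in control and 155 and 63.8 CPM in KO, and Psmc6 7.504 and 0.133 CPM in control and 40.4 and 279 CPM in KO, and Psmc3 had 494 and 1116 counts in control and 0 and 0 in KO. These 4 had the lowest p (unadjusted p 0.0266, 0.0328, 0.0496 and 0.0165, each with an edgeR adjusted p of 0.826). Some members swung between libraries of 1 group as far as between groups. Psmb1 measured 0 and 94.5 CPM in control and 0.0676 and 3.34 CPM in KO, and Psmd4, a ubiquitin receptor, 327 and 0.265 CPM in control and 112 and 182 CPM in KO. Psmb6, at 108 and 114 CPM in control and 189 and 119 CPM in KO, and Psma3, at 46.9 and 65.3 CPM in control and 43.6 and 28.9 CPM in KO, varied less. Psmb7 measured 5.85 and 0 CPM in control and 6.09 and 3.28 CPM in KO, Psmc4 11.8 and 0.0663 CPM in control and 0 and 0 CPM in KO, and Psmd14 0 and 0 CPM in control and 1.08 and 44.6 CPM in KO. For the activators, Psme3 measured 135 and 35.9 CPM in control and 71.4 and 35.6 CPM in KO, Psme4 78.2 and 589 CPM in control and 255 and 259 CPM in KO, and the inhibitor Psmf1 21.5 and 5.37 CPM in control and 13.4 and 109 CPM in KO. Psmg1 measured 47.8 and 134 CPM in control and 133 and 90.5 CPM in KO, and Psmb10 0 and 0 CPM in control and 0 and 16.4 CPM in KO. In 14 of the 34 tested members the groups did not overlap (8 higher, 6 lower), where 15.5% and 17.6% of all genes were higher and lower without overlap.

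In the chromatin of 24h embryos, proteasome promoters carried H3K4me3. A called peak lay within 1000 bases of the gene start for 46 of 50 members, and for 70.2% of 20022 protein-coding genes. The start is that of the authors' gene model. Psma6, Psmd9, Psme2b and Psmf1 had none in that window, and for Psma6, Psmd9 and Psmf1 a RefSeq start lies outside it, so that a peak at that start would not be counted. Each condition has 1 column in the peak tables, so nothing here has a replicate check. Intervals are given for AcNPM1 (exact binomial) and cover counting error only. The column headers of the H3K4me3 and H3K27me3 tables hold initials, read as control and KO from the order in the name of the table and from its ratio.

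The ratio of KO to control was near that of other promoters. Its median log2 value was -0.15 over the 46 member peaks and -0.13 over all 12779 promoter peaks, and 39 of 46 were negative, against 77.6% of all promoter peaks. None was past a 2-fold change, as were 4 of the 12779 (0.0313%). The strongest member peak was that of Psmb3, at 60.7 RPM in control and 60.1 RPM in KO (RPM, reads scaled to the total reads of the library). The catalytic genes Psmb5, Psmb6 and Psmb7 measured 9.55 RPM in control and 7.96 RPM in KO, 16.2 RPM in control and 12.8 RPM in KO, and 11.1 RPM in control and 9.99 RPM in KO. The lowest ratio was that of Psmd10, log2 -0.44, and the highest that of Psme4, log2 0.27. Of the genes that rose between 18h and 22h, Psma7 measured 31.5 RPM in control and 31.1 RPM in KO, Psmd1 20.8 RPM in control and 18.7 RPM in KO, and Psmd12 21.5 RPM in control and 21.01 RPM in KO. Psmd14, at 9.53 RPM in control and 7.96 RPM in KO, had log2 -0.26. Psmd13 and Psmb5, scarce in embryo RNA, had peaks as well (Psmd13 at 23.1 RPM in control and 20.001 RPM in KO).

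H3K27me3 at a member's start was confined, among the peaks called, to Psmb9 and Psmb11, 2 of 50 members, against 15.8% of all protein-coding genes. The Psmb9 peak lay on chromosome 17 from 34186582 to 34187919 (mm10) and held 10.6 RPM in control and 10.1 RPM in KO, log2 -0.072. The Psmb11 peak lay on chromosome 14 from 54625109 to 54626155 and held 7.13 RPM in control and 6.92 RPM in KO, log2 -0.044. It begins inside the printed promoter and covers the gene start. Either gene also had an H3K4me3 peak there, with 30.5 RPM in control and 28.5 RPM in KO at Psmb9 and 14.5 RPM in control and 13.2 RPM in KO at Psmb11. Psmb5, whose gene lies 7315 bases from that of Psmb11, had H3K4me3 and no H3K27me3 peak in the window. The start of Psmb9 faces that of Tap1, so a peak there cannot be assigned to either gene.

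AcNPM1 peaks were called near the starts of Psmb9 and Psmb11 and of Psmb8, which had no H3K27me3 peak, 3 of 50 members, against 14% of all protein-coding genes. At Psmb9 the level was 10.7 RPM in control and 11.96 RPM in KO, log2 0.17 (95% interval -0.022 to 0.36), and at Psmb11 6.45 RPM in control and 6.35 RPM in KO, log2 -0.023 (95% interval -0.27 to 0.23). The Psmb8 peak, 355 bases wide with its centre 893 bases before the start, lies within the authors' gene model of Tap1 and cannot be assigned to Psmb8 alone. It held 3.87 RPM in control and 3.499 RPM in KO, log2 -0.14 (95% interval -0.47 to 0.19). With the p300 inhibitor, the table of KO embryos listed peaks at Psmb9 and Psmb11 (2 of 50, against 16.4%). There the level went from 15.97 to 15.02 RPM at Psmb9 and from 6.35 to 6.13 RPM at Psmb11, log2 -0.089 (95% interval -0.24 to 0.063) and -0.050 (95% interval -0.29 to 0.19). In the comparison with the inhibitor, a single Psmb9 interval of 1344 bases was scored in KO with and without inhibitor. In that of KO against control the Psmb9 interval had 949 bases. The widths are of these intervals and not of a condition. The Psmb9 levels of KO, 15.97 and 11.96 RPM, are therefore not of the same stretch. Under this scaling to total reads, which gave all AcNPM1 promoter peaks a median log2 ratio of 0.21 with 80.3% of 2725 positive, and -0.11 with 67.8% of 3189 below 0 in the inhibitor table, all 5 intervals at these genes span 0. Relative to those medians the ratios lie elsewhere, and intervals were not computed on that scale. None was past a 2-fold change (0.22% of 2725 and of 3189 promoter peaks were). In RNA, Psmb9 was at 0 to 27 counts in these embryos at 18h to 22h and Psmb11 at 0 to 55.

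**Figure D5:**
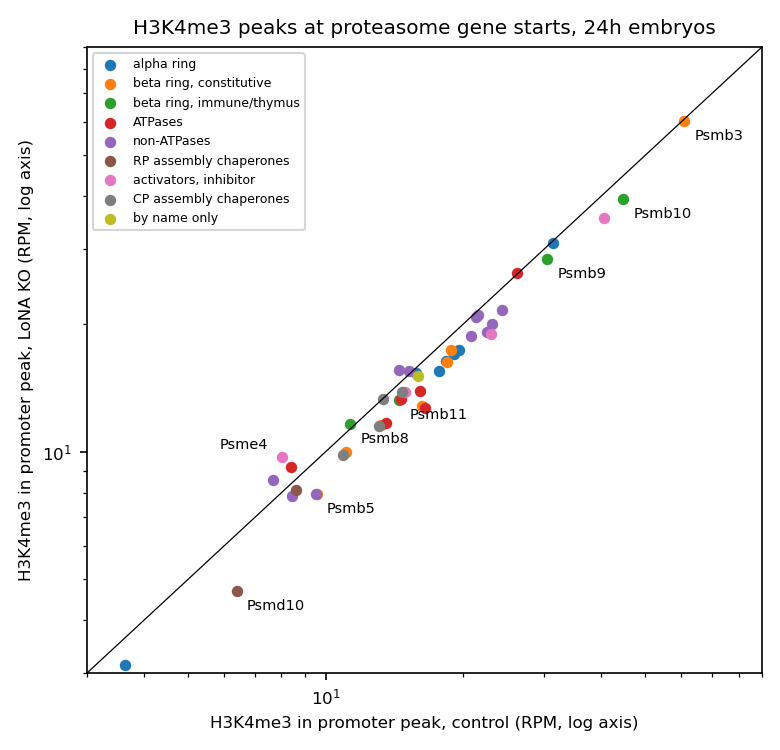
H3K4me3 level (RPM) in the promoter peak of 46 proteasome genes in 24h embryos, control against LoNA KO on log axes, coloured by role (RP, regulatory particle; CP, core particle), with the line of equal values. Most points lie just under the line, Psmb3 is highest, Psme4 lies above the line and Psmd10 farthest below it.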

How the data were processed

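The labels name 38 RNA and 13 chromatin samples, and the deposited values, which have fewer columns, were used. The AcNPM1 samples carry replicate labels, while their peak values have a single column per condition. Whether that column is a replicate or a pool is not given. Raw read counts per gene were deposited by the authors; the submitters' processing notes name HISAT2 2.1.0, Bowtie2 2.2.3 and HTSeq 0.6.0 and build mm10, with no roles, and whether counting used strand is not given in the sources used here. The tables also hold a mean signal over columns, a fold ratio of KO or KD over control and a log2 ratio, all computed by the authors. For peaks, the deposited values are reads, total reads and RPM, reads in the peak scaled to total reads. Tools listed there for chromatin are MACS2 2.1.1, Bowtie2 2.1.0 and bcl2fastq 2.2. Pooling is not stated.

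Each group of 18h, 20h and 22h had 3 columns for 4 labelled samples, and mESC groups had 2 for 3. At 24h, columns of a group that correlated above 0.99 (log2 CPM, prior count 2) were summed, which left 2 libraries from 4 columns. The 8 columns of reads and total reads in the H3K4me3 and H3K27me3 tables were not used. For these marks only RPM and the authors' ratio were read, with the initials of their headers taken as control and KO.

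Counts were scaled by TMM, filtered with filterByExpr and tested with the quasi-likelihood test of edgeR 4.0.16 (limma 3.58.1, R 4.3.3), with Benjamini-Hochberg adjustment over all genes and a threshold of 0.05. The change from 18h to 22h was fitted on the embryo tables of 18h, 20h and 22h together. Alternatives were DESeq2 1.42.0, its size factors, no filter, a threshold of 0.01, single libraries left out, and other peak windows and scalings. A promoter peak overlapped 1000 bases on either side of the gene start, and the peak with the highest RPM was taken. In simulated tables with 100 genes changed 4-fold, edgeR recovered 24 at 18h, 24 at 20h, 37 at 22h, 0 at 24h and 94 in mESC. Of 100 changed 2-fold it recovered 0, 2, 3, 0 and 79. False calls numbered 2, 2, 3, 0 and 13. Counts were drawn with the spread fitted in each comparison. In mESC that is the spread of near-identical columns, so its recovery does not describe separate cultures.

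Named were 13 genes fixed by role with every library, up to 8 called members with the largest change in each direction, the 3 lowest p where none was called, the 5 genes most like Psmb5, and called related genes. The members and lists were chosen with earlier results of these data known. Some genes that this rule names are not reported here.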

Additional observations from a re-analysis of the deposited data

Results flagged for a closer look

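In 4 proteasome genes all KO libraries lay on one side of control at one time and on the other side at 24h. The difference between the times was not tested, and none of these changes passed at its own time. Groups without overlap were common over all genes, with 15.5% higher and 17.6% lower at 24h, 5.56% and 7.25% at 18h, and 5.12% and 4.8% at 20h. Psma3 had a log2 change of 0.59 at 20h and -0.59 at 24h. Psma6 had 0.56 at 18h and -1.56 at 24h, where KO library 1 held 4 counts and KO library 2 held 969. Psmd8 had -0.63 at 20h and 4.98 at 24h. Psmd14 had -1.19 at 18h and a fitted 11.49 at 24h, where both control libraries were at 0 counts, so that the fitted value depends on the prior count and is no bound. At 24h each group has 2 libraries.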

How the results depend on the processing

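No call on a proteasome gene named here turned its direction under an alternative that was run, while medians over members that were not called changed sign at 18h, at 24h and for AcNPM1 with and without inhibitor. No paired analysis was possible because the columns carry no labelled replicate number. The counts between KO and control at 18h, 20h and 22h were 0 under each setting. At 24h, DESeq2 called 4 members higher and 1 lower (5.54% of all genes), and with the paired columns kept apart edgeR called 3 higher and 1 lower of 33, where it called 12.1% of 6805 genes. For 22h over 18h in control, 10 members were higher and 2 lower with DESeq2 (6.6% of all genes called), 7 higher without a filter on low counts (2.76%), 7 higher in a fit of the 18h and 22h groups alone (3.7%), and 0 higher at a threshold of 0.01 (0.0355%). In KO, 1 member was lower with DESeq2 (9.69% of all genes called), with its size factors in edgeR (3.69%), without a filter (3.99%) and in the fit of 18h and 22h alone (4.5%), and 1 was higher at a threshold of 0.01 (0.321%). The cause was not tested. With the promoter peaks scaled to their overall median, the median log2 ratio of member peaks was -0.172 for H3K27me3, -0.2341 for AcNPM1 and 0.03828 for AcNPM1 with inhibitor, against -0.058, -0.023 and -0.069 when scaled to total reads, where the medians over all promoter peaks were 0.11, 0.21 and -0.11. When single libraries were left out, the members' median log2 change at 18h (-0.028) lay between -0.088 and 0.12, and that at 22h between -0.2447 and -0.06083. That at 24h (-0.20) lay between -0.3281 and 3.505, positive without either control library, and that in mESC between 0.2739 and 0.3455. The count of higher members ranged from 34 to 39 and of lower members from 3 to 4 in mESC, from 0 to 2 higher for 22h over 18h in control, and from 1 to 4 in KO. The embryo tests are limited by the spread between libraries.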
